A study of Rattus norvegicus and Mus musculus with 17 samples.

Results

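The Rab genes encode small GTPases that direct vesicle transport between the membranes of a cell. Rows of the deposited tables were taken as members when the gene symbol, without regard to case, was Rab followed by digits and at most 1 letter. This gave 43 symbols over 3 tables with 15824 rows in all. The table of the DEN liver tumour model listed 15 of them among 4649 genes, the table of the Morris hepatoma 38 among 9082, and the table of regenerating liver 9 among 2093. The tables were preselected at a deposited p-value of 0.05, so members outside them have no values here and are not shown to be unchanged. The listed members were 25.4% of 59 annotated mouse Rab genes, with 19.1% of all mouse protein-coding genes listed. In rat they were 65.5% of 58 annotated Rab genes in the hepatoma table, with 39% of coding genes listed, and 15.5% in the regenerating table, with 9.02% of coding genes listed.

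RNA was sequenced from male liver in 5 groups. C57BL/6 mice received diethylnitrosamine (DEN, 50 mg/kg), a liver carcinogen, at an age of 14 days. The tumour promoter TCPOBOP (2 mg/kg) followed 30 days later. Livers were collected at 8 months, when they carried tumours (n = 3), or at 5 months, before tumours (n = 3). Every mouse in the comparison had thus received DEN and TCPOBOP, and tumours and the later age cannot be told apart. ACI rats of 10 weeks received MH3924a cells, from a transplantable Morris hepatoma line, by injection into the liver. Their tumours were collected 2 weeks later (n = 4), and all of them descend from that single line. Other ACI rats, aged 10 to 12 weeks, gave regenerating liver 24 h after partial hepatectomy (n = 4). Untreated ACI liver was the control of both rat groups (n = 3), so the rat comparisons share their control libraries. The labels name no sham injection or sham surgery, no batch and no separate animal for each library, so p-values refer to the spread among libraries of a group, which may be technical.

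A Rab protein switches between a form bound to GTP, which recruits effectors to a membrane, and a form bound to GDP. Exchange factors (GEFs) load GTP, GTPase-activating proteins (GAPs) end the active state, and prenylation by Rab geranylgeranyl transferase anchors the protein in the membrane. GDP dissociation inhibitors then carry it between membranes. In hepatocytes this machinery serves the secretion of plasma proteins, the traffic of transporters to the canalicular membrane, and endocytosis from the blood side.

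Levels are read numbers scaled by transcript length and library size (RPKM), in single libraries or as mean ± SD. The deposited headers name no unit, and the values were read as RPKM from their steps. Relative library depth, read from the same steps, ran from 0.942 to 1.214 of the first DEN library before tumours in mice. In rats it ran from 1 to 1.18 of the first control library. Absolute depth is unknown, so no counting intervals are given. Differences are log2 fold changes ± SE of RPKM + 1, a scale that understates the change of genes with low levels. A gene entered the limma test when 3 or more libraries, the size of the smaller group, reached 1 RPKM. Adjusted p-values (Benjamini-Hochberg) counted all protein-coding genes, and a gene was called at a value under 0.05. Closely related Rab genes, such as Rab1a and Rab1b or the Rab5 genes, resemble each other in sequence. How reads were counted is not given in the sources used here, so the split between such genes is uncertain.

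**Figure D1:**
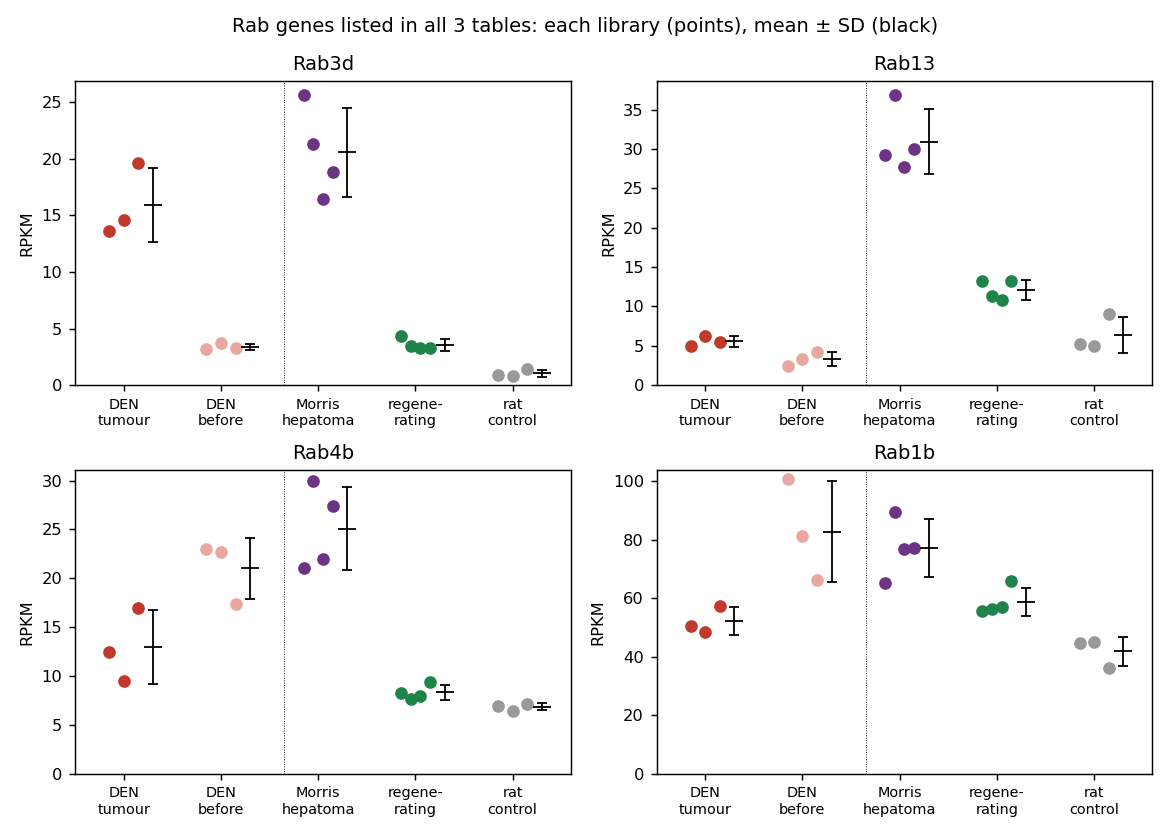
RPKM of Rab3d, Rab13, Rab4b and Rab1b, the genes listed in all 3 tables, in each library (points), with mean ± SD in black; mouse groups stand left of the dotted line and rat groups right of it. Rab3d is highest in DEN livers with tumours (15.9 RPKM against 3.38 RPKM before tumours) and in the Morris hepatoma (20.6 RPKM, against 3.57 RPKM in regenerating and 1.03 RPKM in control liver).

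Rab3d, a regulator of secretory granules in exocrine cells, was called higher in all 3 comparisons, although in regenerating liver the call was lost when library medians were set equal. Of the 43 symbols, 4 were listed in all tables, namely Rab13, Rab1b, Rab3d and Rab4b. There were 11 members shared by the DEN and hepatoma tables, 7 by the hepatoma and regenerating tables, and 5 by the DEN and regenerating tables. The hepatoma table alone listed 24 members. Rab3b, Rab44 and Rab9 were listed only for DEN, and Rab26 only for regenerating liver. The common organelle markers Rab7a and Rab8a, the recycling gene Rab11b, and Rab20, Rab25, Rab27a and Rab29 were among 18 annotated rat Rab genes listed in neither rat table.

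The members that differed most in the hepatoma are shown with the 250 bases upstream of the annotated start of each gene, beside Rab17, which was nearly absent from some hepatoma libraries. The sequences are from RefSeq, rat build GRCr8, on the strand of the gene, and capitals mark the motifs found in them. The records are Rab3d (chr8:28725268-28725517, minus strand), Rab31 (chr9:112828093-112828342, minus strand), Rab34 (chr10:63581292-63581541, plus strand) and Rab17 (chr9:99014033-99014282, minus strand). The promoter table held 48 entries for 47 Rab symbols.
Rab3d: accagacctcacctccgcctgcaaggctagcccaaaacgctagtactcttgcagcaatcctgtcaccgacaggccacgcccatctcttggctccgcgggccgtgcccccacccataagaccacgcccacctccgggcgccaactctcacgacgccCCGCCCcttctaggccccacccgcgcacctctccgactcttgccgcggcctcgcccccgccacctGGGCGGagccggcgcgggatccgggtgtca
Rab31: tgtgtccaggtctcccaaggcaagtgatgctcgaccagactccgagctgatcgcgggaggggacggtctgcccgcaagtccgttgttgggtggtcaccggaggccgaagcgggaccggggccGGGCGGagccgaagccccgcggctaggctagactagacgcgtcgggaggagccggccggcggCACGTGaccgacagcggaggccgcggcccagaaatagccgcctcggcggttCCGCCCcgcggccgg
Rab34: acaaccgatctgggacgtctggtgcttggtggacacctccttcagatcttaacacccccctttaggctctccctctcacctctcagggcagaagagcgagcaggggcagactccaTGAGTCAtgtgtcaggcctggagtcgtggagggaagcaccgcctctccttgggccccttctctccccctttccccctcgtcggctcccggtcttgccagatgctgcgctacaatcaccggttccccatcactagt
Rab17: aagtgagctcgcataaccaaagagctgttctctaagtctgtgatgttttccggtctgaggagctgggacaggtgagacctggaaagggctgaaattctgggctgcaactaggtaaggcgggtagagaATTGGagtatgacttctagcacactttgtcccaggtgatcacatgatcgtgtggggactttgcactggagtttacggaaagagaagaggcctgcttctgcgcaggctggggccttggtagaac
Motifs were searched on both strands as the GC box GGGCGG, the CCAAT box CCAAT, the AP-1 site TGANTCA, the E-box CACGTG and the HNF1 half-site GTTAAT, and no matches overlapped. The Rab3d window held 2 GC boxes. The Rab31 window held 2 GC boxes and 1 E-box. The Rab34 window held 1 AP-1 match, and the Rab17 window 1 CCAAT box on the opposite strand. A GC box was present in 75% of the Rab windows and in 30.5% of 33469 windows of all genes. The latter were not filtered by gene type and outnumber the 23154 rat protein-coding genes. The Rab windows were not compared with those of protein-coding genes alone. For the other motifs the Rab windows and all windows gave 33.3% and 34% for CCAAT, 8.33% and 6.34% for AP-1, 6.25% and 5.59% for the E-box, and 2.08% and 6.45% for the HNF1 half-site. The windows of Rab31 and Rab3d held 34 and 25 CG dinucleotides, those of Rab34 and Rab17 10 and 6. The median was 16.5 for Rab windows and 5 for all windows. A match describes the letters only and is no evidence of binding.

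The first comparison asked how DEN livers with tumours differed from DEN livers before tumours. Of 13 members tested, 3 were higher (Rab3d, Rab38 and Rab6a), 3 were lower (Rab43, Rab9 and Rab3a) and 7 did not pass. Among all 3684 genes tested, 17.9% were called higher, 49.5% lower and 67.3% in either direction. The median log2 fold change was -0.40 for the members and -0.56 for all genes. With library medians set equal, a scaling that removes any shift the listed genes share, 5 members were higher and none was lower. Of all 3684 genes, 24.8% were higher and 17.2% lower under it. Rab23 and Rab13 joined the higher ones under that scaling, and no lower call was left. Some markers of other cell types were also higher in livers with tumours, without overlap. Stellate cell and fibroblast markers (2 of 11 listed) summed to 13.4 to 22.2 RPKM with tumours and 4.53 to 7.20 RPKM before, and mitosis genes (9 of 12 listed) to 17.3 to 38.1 and 5.16 to 6.88 RPKM. The only listed marker of T and NK cells, Klrb1b, measured 38.5 to 72.7 RPKM with tumours and 0.202 to 3.12 RPKM before, and the only listed cholangiocyte marker, Sox9, 7.99 to 10.9 and 2.38 to 4.36 RPKM. The sums of endothelial (6 of 12 listed) and macrophage markers (6 of 12 listed) overlapped between the groups, at 28.6 to 49.5 and 83.9 to 116 RPKM with tumours and 21.6 to 29.6 and 93.4 to 115 RPKM before. Singly, 4 of 6 endothelial markers tested were called higher and 1 lower, with a median log2 fold change of 0.75. Of 5 macrophage markers tested, 2 were called higher (Lyz2 and Cd68) and 2 lower (Clec4f and Timd4), with a median of -0.96. The part of these cells in the Rab differences of the DEN model was not tested.

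Rab3d (GeneID 19340) had the largest rise in the DEN model. It measured 13.6, 14.6 and 19.6 RPKM in livers with tumours, against 3.18, 3.69 and 3.26 RPKM before tumours. Every tumour-bearing liver was above every earlier one, by far more than the spread within a group. The means were 15.9 ± 3.24 and 3.38 ± 0.277 RPKM (SD, n = 3 each), a 4.72-fold ratio. The log2 fold change was 1.94 ± 0.16 (limma, adjusted p = 0.00034), and the call held without any single library. The 3 genes of the table with the most similar pattern over the 6 libraries were Myzap (Pearson r = 0.999), Slc24a3 (0.998) and B4galt6 (0.996), and these r values largely carry the difference between the groups.

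Rab38 (GeneID 72433), which together with Rab32 serves melanosomes and other lysosome-related organelles, was low in every mouse liver. It measured 1.28, 1.37 and 2.80 RPKM with tumours, against 0.227, 0.204 and 0.120 RPKM before. The groups did not overlap, and no library before tumours reached the filter of 1 RPKM, so Rab38 entered the test through the tumour libraries alone. The log2 fold change was 1.21 ± 0.19 (limma, adjusted p = 0.0053), and the linear ratio was 9.89. Rab32 measured 11.2, 12.5 and 11.7 RPKM with tumours and 16.3, 12.9 and 16.5 RPKM before. Its log2 fold change of -0.34 ± 0.14 did not pass (limma, adjusted p = 0.24).

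The Golgi Rab genes of the mouse moved in different directions. Rab6a, which serves retrograde transport through the Golgi, measured 26.5, 26.9 and 31.3 RPKM with tumours, against 20.09, 15.6 and 19.3 RPKM before. All tumour libraries were above all earlier ones, with a log2 fold change of 0.60 ± 0.15 (limma, adjusted p = 0.031). Rab43, another Rab of the Golgi and its sorting routes, fell to 11.6, 12.9 and 14.1 RPKM with tumours, against 26.1, 21.8 and 22.3 RPKM before. These groups stood well apart (log2 fold change -0.81 ± 0.14, limma, adjusted p = 0.0063). Rab1b, which carries cargo from the endoplasmic reticulum (ER) to the Golgi, measured 50.7, 48.4 and 57.6 RPKM with tumours and 100.8, 81.4 and 66.3 RPKM before. The groups did not overlap, but the earlier livers spread widely, and the log2 fold change of -0.64 ± 0.18 missed the threshold (limma, adjusted p = 0.055).

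Rab9, whose protein returns mannose 6-phosphate receptors from late endosomes to the Golgi, measured 24.6, 29.4 and 19.9 RPKM with tumours, against 34.7, 38.3 and 52.1 RPKM before. All tumour libraries were lower (log2 fold change -0.73 ± 0.20, limma, adjusted p = 0.048). Rab3a, best known from synaptic vesicles, measured 3.18, 2.80 and 1.995 RPKM with tumours, against 3.91, 4.75 and 4.63 RPKM before, again without overlap. Its log2 fold change was -0.58 ± 0.16 (limma, adjusted p = 0.048). Within the Rab3 pair the balance was reversed. Rab3d stood at 6.44 ± 2.98 times Rab3a in livers with tumours and at 0.765 ± 0.0565 times Rab3a before tumours (SD, n = 3 each). Together they gave 18.6 ± 2.64 RPKM with tumours and 7.81 ± 0.679 RPKM before.

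The calls of Rab3a, Rab6a and Rab9 were each lost when any of 5 of the 6 libraries was left out. Rab3a kept its call only without tumour library 1, and its adjusted p otherwise reached 0.19. Rab6a and Rab9 kept theirs only without tumour library 2, with adjusted p up to 0.15 and 0.17. Rab3d and Rab43 kept their calls without any single library. Rab38 did so too, but it entered the test through the tumour libraries alone, so this gives no support of its own.

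Neither the early endosome members Rab5c and Rab4b nor the recycling members Rab14 and Rab13 passed. Rab5c, which governs fusion of early endosomes, measured 50.8, 54.7 and 67.3 RPKM with tumours and 80.5, 77.5 and 69.5 RPKM before (log2 fold change -0.40 ± 0.16, limma, adjusted p = 0.20). Rab14, which links endosomes and the Golgi, measured 30.6, 39.5 and 31.7 RPKM with tumours and 52.7, 45.5 and 41.8 RPKM before (-0.45 ± 0.16, adjusted p = 0.13 by limma). Both were non-overlapping, with every tumour library below every earlier one.

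Rab4b, of the fast recycling route, measured 12.5, 9.46 and 16.9 RPKM with tumours and 22.9, 22.7 and 17.4 RPKM before (log2 fold change -0.68 ± 0.21, limma, adjusted p = 0.080). Rab13, which acts at tight junctions, measured 4.92, 6.28 and 5.46 RPKM with tumours and 2.43, 3.33 and 4.23 RPKM before (0.62 ± 0.18, limma, adjusted p = 0.060). These groups did not overlap either, Rab4b being lower and Rab13 higher in each tumour library. Rab23, a negative regulator of Hedgehog signalling, measured 2.60, 2.43 and 3.12 RPKM with tumours and 1.83, 1.56 and 1.96 RPKM before (0.42 ± 0.13, limma, adjusted p = 0.082). Rab3b and Rab44 stayed below the filter and were not tested, at no more than 0.529 and 0.108 RPKM in livers with tumours and 0.286 and 0.0145 RPKM before. All 15 listed members separated the groups without overlap, as did the listed genes at large, of which 28.6% were higher and 71.4% lower without overlap.

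**Figure D2:**
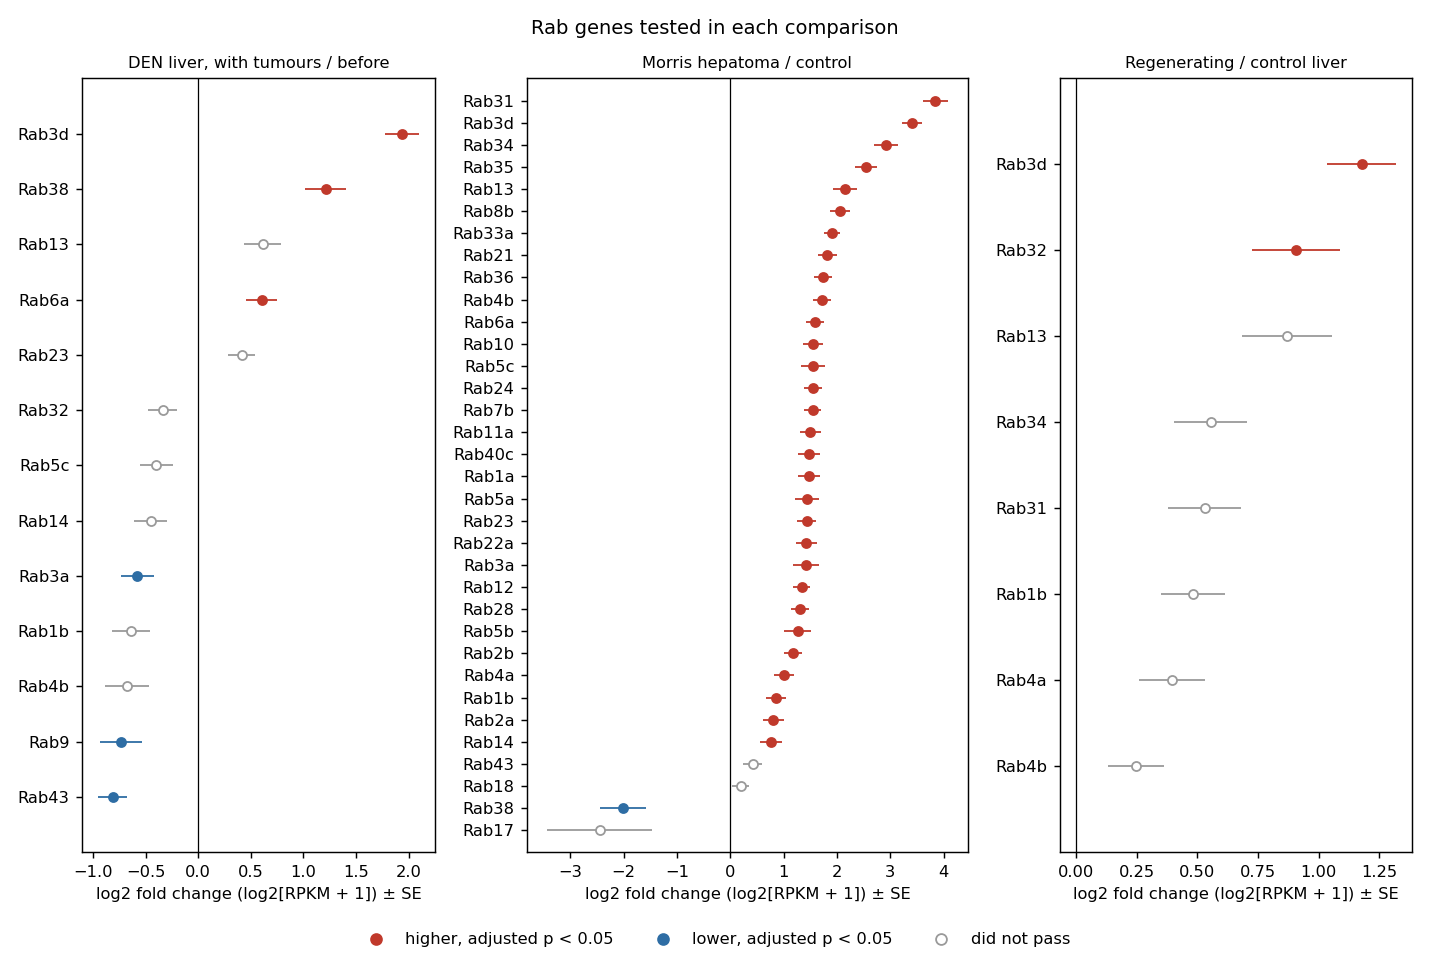
Log2 fold change of RPKM + 1 ± SE for each Rab gene tested, with a panel for each comparison and a different horizontal range in each. Most hepatoma values lay above 0, with Rab31 at 3.85 and Rab3d at 3.41, and Rab17 and Rab38 were below 0 at -2.45 and -2.02.

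The second comparison set the Morris hepatoma against untreated rat liver. Of 34 members tested, 30 were higher, 1 was lower (Rab38) and 3 did not pass. The background was as one-sided, with 85.5% of 8233 tested genes called higher, 8.73% lower and 94.3% in either direction. Of the 38 listed members, 35 were higher and 2 lower with no overlap between the groups, and 86.9% and 11.4% of all listed genes were so. The median log2 fold change was 1.47 for the members and 1.58 for all tested genes. With library medians equal, 7 members were higher (Rab31, Rab3d, Rab33a, Rab36, Rab34, Rab35 and Rab7b) and 8 were lower (Rab17, Rab38, Rab18, Rab43, Rab14, Rab2a, Rab1b and Rab4a). Of all genes, 31.3% were higher and 26.7% lower under that scaling. It turned the sign of the log2 fold change in 20 of the 34 members tested. Rab23, Rab33a, Rab36 and Rab7b had no control library at 1 RPKM and so entered the test through the hepatoma alone.

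Markers of hepatocytes and of other cell types differed with the hepatoma. Of 11 hepatocyte markers tested, 1 fell and 10 did not pass, with a wide spread among hepatoma libraries and a median log2 fold change of -4.71. Summed over the 12 of 15 hepatocyte markers listed, hepatoma libraries 1 to 4 had 927, 40.9, 21389 and 17963 RPKM, against 81694 to 111066 RPKM in control liver. Albumin was at 574, 19.0013, 10943 and 10924 RPKM in hepatoma libraries 1 to 4 and at 48190 to 67213 RPKM in control liver. The hepatocyte factor Hnf4a had no reads in hepatoma library 2, but it was low in every library, at 0.873 to 1.68 RPKM in control liver. Macrophage markers (4 of 12 listed) summed to 744 to 1353 RPKM in hepatoma and 132 to 160 RPKM in control. Most of that sum was Lyz2, at 785 ± 303 RPKM in hepatoma and 26.0 ± 21.4 RPKM in control, while the Kupffer cell marker Clec4f fell to 16.0 ± 11.4 RPKM in hepatoma, against 80.4 ± 10.9 RPKM in control (limma, adjusted p = 0.012). Markers of stellate cells and fibroblasts (8 of 11 listed) gave 517 to 1223 and 20.2 to 84.7 RPKM, and endothelial markers (5 of 12 listed) 129 to 179 and 24.2 to 37.2 RPKM. Mitosis genes (11 of 12 listed) gave 442 to 690.1 RPKM in hepatoma and 4.08 to 16.0 RPKM in control. The part of these cells in the Rab differences was not tested, and in whole tissue fewer cells of a type and less RNA per cell cannot be told apart.

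The largest rise was in Rab31 (GeneID 246324), which links the trans-Golgi network with endosomes. Rab31 measured 38.6, 35.5, 22.1 and 30.4 RPKM in hepatoma, against 1.17, 0.824 and 1.76 RPKM in control liver. The groups were more than an order of magnitude apart, and library 3 was the lowest hepatoma value. The means were 31.6 ± 7.22 (SD, n = 4) and 1.25 ± 0.471 RPKM (SD, n = 3), a 25.3-fold ratio. The log2 fold change was 3.85 ± 0.23 (limma, adjusted p = 1.1e-06). Over the 7 libraries the most similar patterns were those of Pi16, Chst14 and Bzw2, each with a Pearson r of 1.00 after rounding, which again carries mainly the group difference.

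Rab3d (GeneID 140665) rose next in size. It measured 25.6, 21.3, 16.5 and 18.9 RPKM in hepatoma, against 0.892, 0.793 and 1.39 RPKM in control liver, a 20.07-fold ratio of the means. No hepatoma library came near a control library (log2 fold change 3.41 ± 0.19, limma, adjusted p = 9.3e-07). Its paralogue Rab3a measured 7.08, 3.13, 3.07 and 4.09 RPKM in hepatoma, against 1.10, 1.05 and 0.631 RPKM in control (1.42 ± 0.25, limma, adjusted p = 0.00095). Rab3d was 5.10 ± 1.34 times Rab3a in hepatoma and 1.26 ± 0.823 times Rab3a in control liver. The Rab3d to Rab3a ratio was 3.62 to 6.81 in hepatoma and 0.754 to 2.21 in control, without overlap.

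Rab34 (GeneID 360571), which takes part in macropinocytosis, the positioning of lysosomes and the formation of primary cilia, reached a high level. It measured 77.9, 68.98, 50.06 and 61.5 RPKM in hepatoma, against 8.83, 8.62 and 5.60 RPKM in control (log2 fold change 2.92 ± 0.22, limma, adjusted p = 3.6e-06). Rab35, of fast recycling and cytokinesis, measured 47.5, 46.3, 30.7 and 40.8 RPKM in hepatoma, against 6.60, 7.09 and 5.01 RPKM in control (2.54 ± 0.20, limma, adjusted p = 5.3e-06). In both genes library 3 was the lowest of the hepatoma values and still far above control. Rab13 measured 29.2, 36.9, 27.8 and 29.97 RPKM in hepatoma, against 5.15, 4.92 and 9.06 RPKM in control (2.15 ± 0.22, limma, adjusted p = 2.4e-05). Rab8b, of polarised secretion, measured 20.4, 28.02, 27.9 and 22.97 RPKM in hepatoma, against 5.61, 5.79 and 4.22 RPKM in control (2.05 ± 0.18, limma, adjusted p = 9.9e-06). Neither gene had overlapping groups, though both lost their call when library medians were set equal.

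Some members were nearly silent in control liver. Rab33a measured 3.43, 2.83, 2.61 and 3.40 RPKM in hepatoma, against 0.233 RPKM in control library 2 and no reads in control libraries 1 and 3. Rab36 measured 3.14, 2.83, 1.67 and 2.03 RPKM in hepatoma, against 0.0227 RPKM in control library 2 and again no reads in the others. Both are related to Golgi Rab proteins, and both were picked for this display after their values were seen. The values of each gene were separated completely, with fitted log2 fold changes of 1.92 ± 0.15 for Rab33a (limma, adjusted p = 4.8e-06) and 1.74 ± 0.17 for Rab36 (limma, adjusted p = 2.1e-05). Both entered the test through the hepatoma libraries alone, so these p-values only describe the separation and give no support of their own. Rab7b, of the route from late endosomes to the Golgi, averaged 2.70 ± 0.537 RPKM in hepatoma and 0.264 ± 0.140 RPKM in control.

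**Figure D3:**
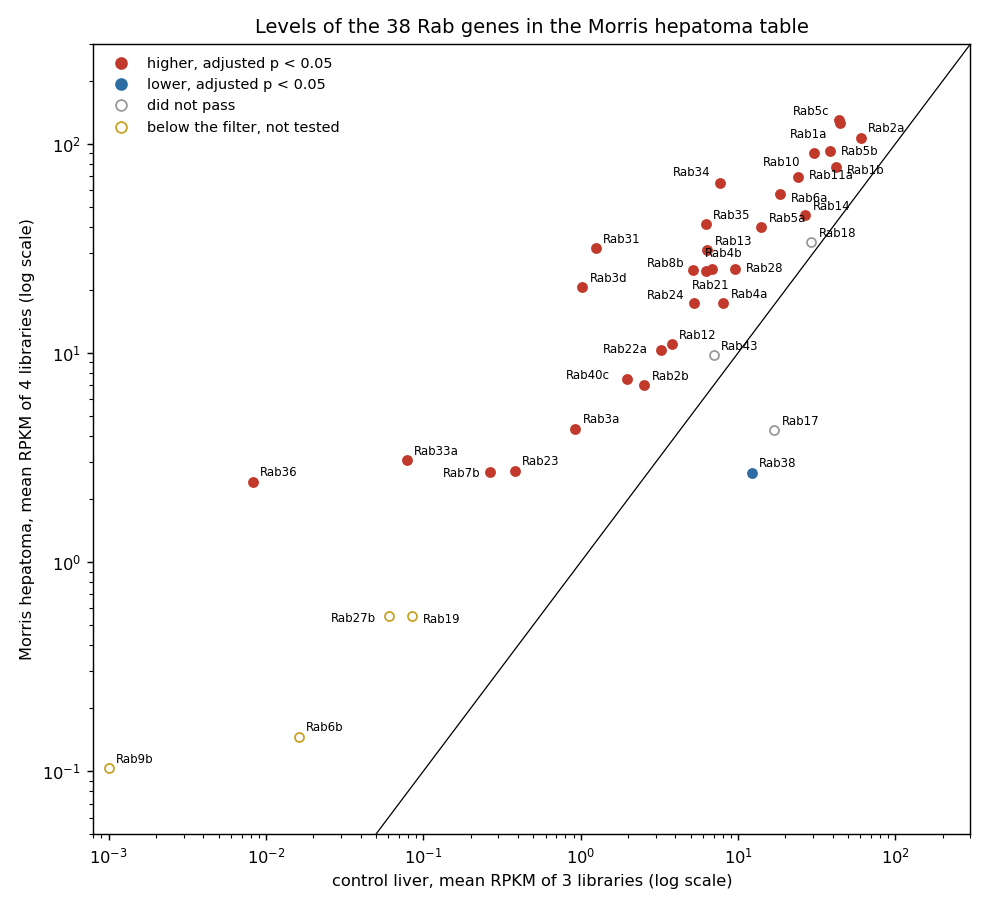
Mean RPKM of the 38 listed Rab genes in the Morris hepatoma (vertical, 4 libraries) against control liver (horizontal, 3 libraries), both on log axes, with the line of equal levels and no reads drawn at 0.001. Nearly all members lie above the line, and Rab17 and Rab38 lie below it.

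Among ER and Golgi members, 6 of 8 tested rose, with a median log2 fold change of 1.02, against 85.5% higher and a median of 1.58 among all genes tested. Setting library medians equal left 1 of the 8 called higher and 4 called lower, against 31.3% and 26.7% of all genes. The 1 called higher was Rab33a, which entered the test through the hepatoma libraries alone. Of the ER and Golgi members, Rab1a averaged 125 ± 20.5 RPKM in hepatoma and 44.5 ± 7.54 RPKM in control (1.47 ± 0.21). Rab6a measured 54.8, 64.2, 55.9 and 54.3 RPKM in hepatoma, against 16.7, 21.6 and 17.2 RPKM in control (1.59 ± 0.17, limma, adjusted p = 3.6e-05). Rab2a, of ER to Golgi transport, averaged 107 ± 16.2 RPKM in hepatoma and 60.1 ± 2.16 RPKM in control (0.81 ± 0.19). Rab1b measured 65.3, 89.7, 76.9 and 77.3 RPKM in hepatoma, against 44.7, 44.98 and 36.1 RPKM in control (0.87 ± 0.19, limma, adjusted p = 0.0039). No hepatoma library of Rab1b fell within the control range, but with library medians equal the fold changes of Rab1b, at -0.996, Rab2a, at -1.06, Rab1a, at -0.40, and Rab6a, at -0.25, had the opposite sign, and Rab1b and Rab2a were called lower.

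Rab18, which coats lipid droplets and ER, did not pass. It measured 29.96, 35.6, 35.7 and 33.9 RPKM in hepatoma and 30.8, 29.1 and 27.9 RPKM in control (log2 fold change 0.20 ± 0.16, limma, adjusted p = 0.68). These groups overlapped, and with library medians equal Rab18 was called lower, at -1.64. Rab43 measured 11.6, 10.4, 9.07 and 8.03 RPKM in hepatoma and 7.89, 7.26 and 5.92 RPKM in control (0.42 ± 0.18, limma, adjusted p = 0.11). Rab43 was non-overlapping but close, and it had the opposite sign, -1.27, and was called lower with library medians equal.

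Early endosome members rose in 9 of 10 tested genes, with a median log2 fold change of 1.49, and Rab17 did not pass. That count is near the 85.5% called higher among all genes, whose median was 1.58. Only Rab31 of the group was called higher with library medians equal, and Rab17 and Rab4a were called lower. That scaling called 31.3% of all genes higher and 26.7% lower. Rab5c measured 128, 157, 112 and 123 RPKM in hepatoma, against 51.2, 48.2 and 32.7 RPKM in control (1.55 ± 0.22, limma, adjusted p = 0.00023). The groups did not overlap, and library medians set equal turned the sign to -0.32. Rab5a averaged 39.98 ± 8.92 RPKM in hepatoma and 14.03 ± 2.60 RPKM in control, and Rab5b 92.3 ± 17.1 and 38.6 ± 11.2 RPKM. The 3 Rab5 genes together gave 262 ± 38.4 RPKM in hepatoma and 96.7 ± 18.7 RPKM in control. The ratio of Rab5c to Rab5a was 3.33 ± 0.680 in hepatoma and 3.30 ± 1.26 in control, a difference smaller than the spread. Rab21, of integrin endocytosis, averaged 24.7 ± 3.44 RPKM in hepatoma and 6.27 ± 0.872 RPKM in control (1.82 ± 0.18).

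Rab4a and Rab4b, which share the fast recycling route, had unequal levels. Rab4b measured 21.002, 29.9, 22.02 and 27.4 RPKM in hepatoma, against 6.98, 6.43 and 7.12 RPKM in control (log2 fold change 1.72 ± 0.18, limma, adjusted p = 2.4e-05). Rab4a measured 16.3, 21.3, 13.6 and 17.8 RPKM in hepatoma, against 8.96, 8.53 and 6.71 RPKM in control (1.00 ± 0.19, limma, adjusted p = 0.0017). Neither pair of groups overlapped, and with library medians equal the values were -0.03 for Rab4b and -0.74 for Rab4a. Within a library Rab4b was 1.46 ± 0.145 times Rab4a in hepatoma and 0.865 ± 0.172 times Rab4a in control, ranges of 1.29 to 1.62 and 0.753 to 1.06.

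All 7 recycling and polarised transport members tested were higher, with a median of 1.56, against 85.5% and a median of 1.58 among all genes tested. Only Rab35 of these members was called higher with library medians equal, and Rab14 was called lower, beside 31.3% and 26.7% of all genes. The recycling endosome gene Rab11a averaged 69.6 ± 10.7 RPKM in hepatoma and 23.9 ± 3.61 RPKM in control (1.50 ± 0.19). Rab10, of basolateral transport, averaged 90.4 ± 6.68 and 30.3 ± 5.22 RPKM (1.56 ± 0.19). Rab14 measured 50.3, 46.2, 40.996 and 44.6 RPKM in hepatoma, against 28.9, 31.9 and 19.7 RPKM in control (0.77 ± 0.20, limma, adjusted p = 0.013), without overlap, and at -1.08 it had the opposite sign with library medians equal. The 5 tested members of the cilium and other group were also all higher, with a median of 1.48. With library medians equal, 2 of them, Rab34 and Rab36, were called higher. Rab23 and Rab36 entered the test through the hepatoma libraries alone, so their calls give no support of their own. The remaining members called higher, Rab24, Rab40c, Rab23, Rab22a, Rab12, Rab28 and Rab2b, had log2 fold changes between 1.18 and 1.55. Below the filter, Rab6b, Rab19, Rab27b and Rab9b stayed at no more than 0.885 RPKM in any hepatoma library and 0.209 RPKM in any control library. Rab9b had no reads in all 3 control libraries.

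Rab17 (GeneID 503269), an epithelial Rab of apical recycling and transcytosis, split the hepatoma libraries. It measured 0.301, 0.0346, 9.96 and 6.79 RPKM in hepatoma libraries 1 to 4, against 15.7, 16.5 and 18.6 RPKM in control. Libraries 1 and 2 were nearly without Rab17, and libraries 3 and 4 lay between them and control, as they did for the hepatocyte markers. The groups did not overlap, but the log2 fold change of -2.45 ± 0.98 did not pass (limma, adjusted p = 0.14). Without hepatoma libraries 3 and 4, an alternative chosen after seeing the data, it was -3.95 ± 0.18. Those are the hepatoma libraries with the highest Rab17, so this value follows from the choice and gives no support. With each library left out in turn, the adjusted p of Rab17 ran from 0.051 to 0.35 (limma). With library medians equal it was 0.013 (limma).

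Rab38 (GeneID 252916) was lower in the hepatoma. It measured 0.479, 2.16, 4.93 and 3.12 RPKM in hepatoma libraries 1 to 4, against 12.7, 12.96 and 11.1 RPKM in control. Every hepatoma library was below every control library, with library 1 lowest and library 3 highest (log2 fold change -2.02 ± 0.43, limma, adjusted p = 0.0068). Rab17 and Rab38 were added to the search for similar patterns after their values were seen. Over the 7 libraries the Pearson r with Rab17 was 0.999 for Mttp, 0.999 for Foxa3 and 0.998 for Agmat. With Rab38 it was 0.998 for Mmp19, 0.997 for C1r and 0.994 for Tmem176a. The part of the hepatocyte share in either gene was not tested.

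**Figure D4:**
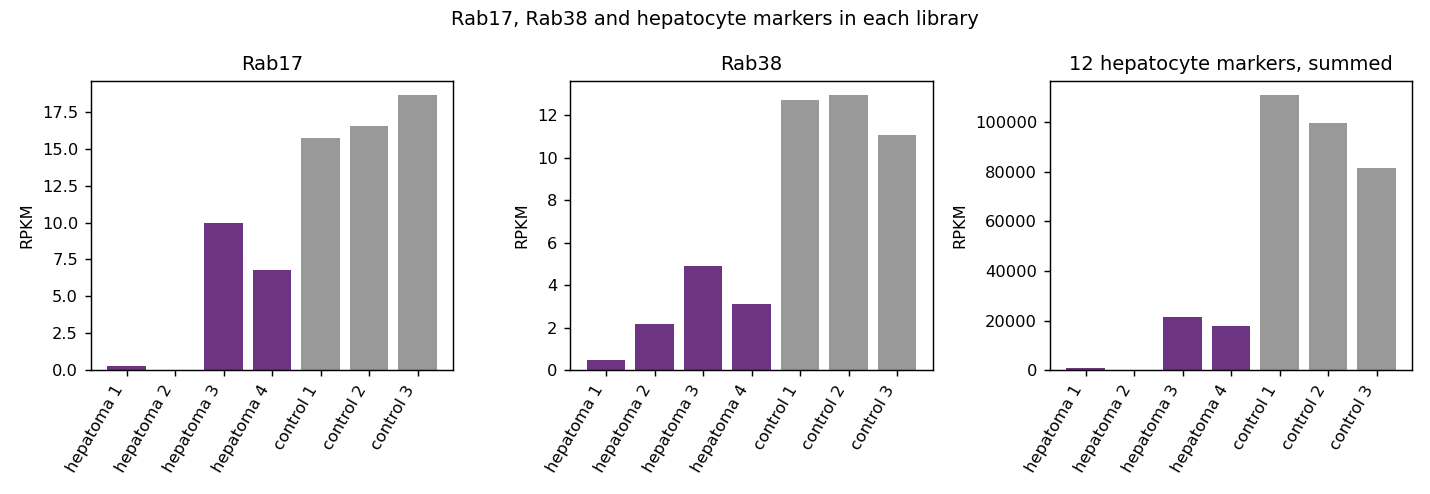
RPKM of Rab17, of Rab38 and of 12 summed hepatocyte markers in the single libraries of Morris hepatoma (left) and control liver (right). Hepatoma libraries 3 and 4 are above libraries 1 and 2 in Rab17 and in the markers, while Rab38 is lowest in library 1.

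The order of the levels also differed between the groups. In the hepatoma the highest means were those of Rab5c at 129.8 RPKM, Rab1a at 125 RPKM and Rab2a at 107 RPKM, and from Rab5c down to Rab6a each neighbour overlapped the next. In control liver Rab2a was highest at 60.1 RPKM and did not overlap Rab1a at 44.5 RPKM, which came next, while Rab1a overlapped Rab5c. Rab34 held 64.6 RPKM in hepatoma and 7.68 RPKM in control. In the DEN table Rab5c, at 57.6 RPKM, and Rab1b, at 52.2 RPKM, overlapped at the top in livers with tumours, and Rab1b at 82.8 RPKM and Rab5c at 75.8 RPKM overlapped before tumours.

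The third comparison set regenerating liver against the same controls. Of 8 members tested, 2 were higher (Rab3d and Rab32), none was lower and 6 did not pass. Of 1703 genes tested, 21.2% were called higher, 0.763% lower and 22.0% in either direction. All 9 listed members were higher without overlap, as were 87.4% of the listed genes, with 5.4% lower. The median log2 fold change was 0.54 for the members and 0.53 for all genes. None of the 8 members passed with library medians equal, and few genes did at all. Of all 1703 genes, 1.53% were higher and 3.17% lower under that scaling. All the members tested were listed as higher by the deposited table, so limma left none lower at an unadjusted p under 0.05 either. Mitosis genes (10 of 12 listed) summed to 56.7 to 194 RPKM in regenerating liver and 3.00 to 13.6 RPKM in control. Endothelial markers (3 of 12 listed) gave 41.4 to 67.2 RPKM in regenerating liver and 18.5 to 25.3 RPKM in control, and stellate cell and fibroblast markers (3 of 11 listed) 55.1 to 73.6 and 17.4 to 46.3 RPKM. The part of these cells in the regenerating values was not tested. No hepatocyte marker was listed there, so the hepatocyte share has no value for this comparison.

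Rab3d measured 4.36, 3.41, 3.24 and 3.28 RPKM in regenerating liver, against 0.892, 0.793 and 1.39 RPKM in control liver. All regenerating libraries were above all controls, with library 1 apart from the other 3. The means were 3.57 ± 0.530 and 1.03 ± 0.321 RPKM, a 3.48-fold ratio (log2 fold change 1.18 ± 0.14, limma, adjusted p = 0.0093). The call was lost without control library 1, at an adjusted p of 0.065. The most similar patterns over the 7 libraries were those of Arpc1b, Sepw1 and Olfml3, with Pearson r of 0.994, 0.993 and 0.993.

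Rab32, the partner of Rab38 in lysosome-related organelles, measured 3.76, 4.86, 5.42 and 6.14 RPKM in regenerating liver, against 1.75, 1.85 and 3.15 RPKM in control. The groups did not overlap, and control library 3 came closest to the regenerating values (log2 fold change 0.91 ± 0.18, limma, adjusted p = 0.042). The call was lost without any of 6 of the 7 libraries, with an adjusted p of up to 0.19.

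The other members of this table did not pass. Rab13 measured 13.2, 11.3, 10.8 and 13.2 RPKM in regenerating liver and 5.15, 4.92 and 9.06 RPKM in control (log2 fold change 0.87 ± 0.19, limma, adjusted p = 0.051). Rab1b measured 55.8, 56.3, 57.2 and 65.8 RPKM in regenerating liver and 44.7, 44.98 and 36.1 RPKM in control (0.48 ± 0.13, limma, adjusted p = 0.12). Rab4b measured 8.23, 7.67, 7.97 and 9.42 RPKM in regenerating liver and 6.98, 6.43 and 7.12 RPKM in control (0.25 ± 0.11, limma, adjusted p = 0.79). In all 3 genes every regenerating library was above every control library. Rab34, Rab31 and Rab4a had log2 fold changes of 0.55 ± 0.15, 0.53 ± 0.15 and 0.39 ± 0.14, with limma adjusted p of 0.12, 0.14 and 0.28. Rab26, a Rab of secretory granules, stayed below the filter, at up to 0.183 RPKM in regenerating liver and 0.0540 RPKM in control.

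The hepatoma was then compared directly with regenerating liver, on the genes listed in both rat tables, which had identical control values. Of 7 members tested, 6 were higher in hepatoma and 1 did not pass, with 81.5% of 1696 genes called higher, 4.66% lower and 86.1% in either direction. The same 6 had no overlap between the groups, and 83.4% of genes listed in both tables were higher and 5.82% lower without overlap. The medians were 1.47 for members and 1.45 for all genes.

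Rab31 measured 38.6, 35.5, 22.1 and 30.4 RPKM in hepatoma, against 2.38, 2.21, 1.90 and 2.35 RPKM in regenerating liver. The hepatoma libraries were 14.3-fold higher on average, without overlap (log2 fold change 3.32 ± 0.18, limma, adjusted p = 2.7e-09). Rab34 measured 77.9, 68.98, 50.06 and 61.5 RPKM in hepatoma and 12.3, 10.996, 11.7 and 11.3 RPKM in regenerating liver (2.37 ± 0.16, limma, adjusted p = 3.4e-08). Rab3d measured 25.6, 21.3, 16.5 and 18.9 RPKM in hepatoma and 4.36, 3.41, 3.24 and 3.28 RPKM in regenerating liver (2.23 ± 0.16, limma, adjusted p = 4.4e-08). These 3 genes had no overlap and were also higher with library medians equal.

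Rab4b and Rab13 were higher by 1.47 ± 0.14 (limma, adjusted p = 9.4e-07) and 1.28 ± 0.17 (adjusted p = 4.9e-05), Rab4a by 0.61 ± 0.15 (adjusted p = 0.021). With library medians equal these values became -0.11, -0.33 and -0.95. Rab4a measured 16.3, 21.3, 13.6 and 17.8 RPKM in hepatoma and 11.97, 9.40, 10.4 and 11.8 RPKM in regenerating liver. Its groups did not overlap, yet the call was lost without hepatoma library 2 or 4 or regenerating library 2 or 3, at an adjusted p of up to 0.099. Rab1b measured 65.3, 89.7, 76.9 and 77.3 RPKM in hepatoma and 55.8, 56.3, 57.2 and 65.8 RPKM in regenerating liver. The Rab1b groups overlapped and its difference of 0.38 ± 0.14 did not pass (limma, adjusted p = 0.25). Rab1b was called lower in hepatoma with library medians equal, at -1.29, and so was Rab4a, although the mean RPKM of both was higher in hepatoma. That scaling called 29% of all 1696 genes higher and 28.4% lower. It removes any shift the preselected genes share, so these lower calls are relative to the other listed genes.

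**Figure D5:**
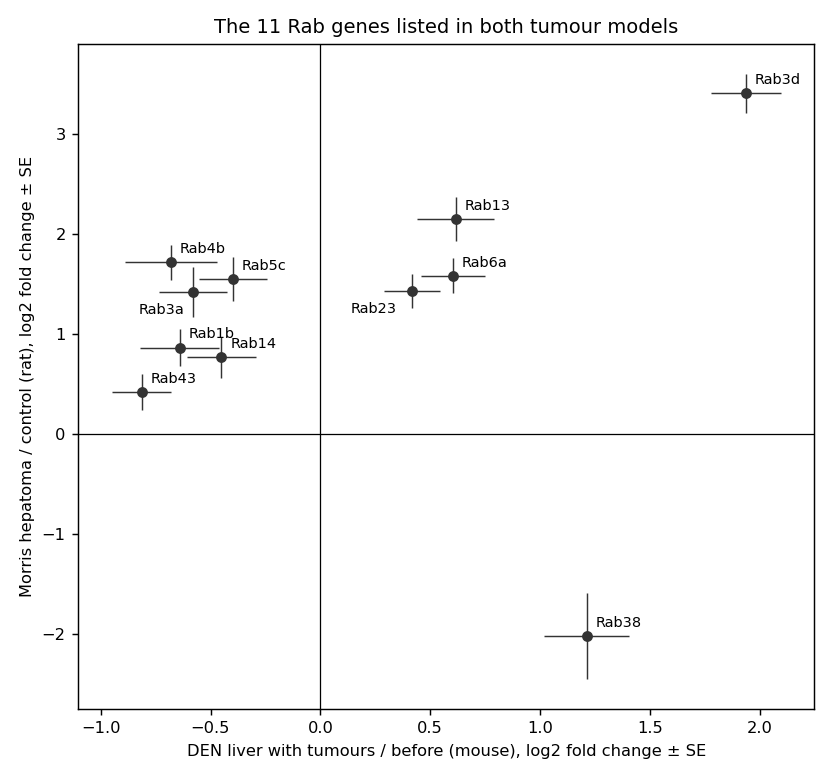
Log2 fold change of RPKM + 1 ± SE of the 11 Rab genes listed in both tumour models, with the DEN model on the horizontal axis and the Morris hepatoma on the vertical axis. Rab3d is highest on both axes, and Rab38 lies on opposite sides of 0, at 1.21 in DEN and -2.02 in the hepatoma.

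Of the 11 members listed in both tumour models, Rab3d, Rab6a, Rab13 and Rab23 were listed as higher in both. In DEN Rab13 and Rab23 did not pass, although they did with library medians equal. In the hepatoma that scaling turned Rab6a to -0.25, and Rab13 and Rab23 lost their calls, at 0.40 and 0.51. Rab23 had also entered the hepatoma test through the hepatoma libraries alone. Only Rab3d was called higher in both models under either scaling. Rab3a, Rab1b, Rab4b, Rab5c, Rab14 and Rab43 had negative log2 fold changes in DEN and positive ones in the hepatoma. With library medians equal the hepatoma values of Rab1b, Rab4b, Rab5c, Rab14 and Rab43 became negative, at -0.996, -0.031, -0.32, -1.08 and -1.27, and the DEN value of Rab5c became 0.043. Rab38 was higher in DEN livers with tumours and lower in the hepatoma. Rab3a and Rab38 passed the test in each model, with opposite signs. Rab3a lost its call in both models with library medians equal, at -0.23 in DEN and 0.21 in the hepatoma, and in DEN also without any of 5 of the 6 libraries. Rab38 entered the DEN test through the tumour libraries alone. The difference between the models, which come from different species and tables, was not tested. The 7 of 15 hepatocyte markers listed for DEN summed to 134928 to 147785 RPKM with tumours and 57632 to 71126 RPKM before, but of the 7 only Alb and Apoa1 rose and 3 fell, and their median log2 fold change was -0.78.

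The regulators of Rab proteins were read from lists of known genes, against the same backgrounds. The DEN counts stand beside 49.5% of all tested genes called lower and a median of -0.56. In the DEN model both listed prenylation and recycling factors fell. Rabggta, a subunit of Rab geranylgeranyl transferase, averaged 5.99 ± 0.251 RPKM with tumours and 12.4 ± 0.998 RPKM before (log2 fold change -0.94 ± 0.12, limma, adjusted p = 0.0023). Of 11 exchange factors tested, 5 fell and none rose, a share close to that of all genes. Those that fell included Hps4, part of the exchange factor for Rab32 and Rab38 (-0.83 ± 0.18), and Madd, an exchange factor for Rab3 (-0.70 ± 0.15). Madd and the effector Exph5 entered the test through livers before tumours alone, and Sgsm1 through livers with tumours alone, so their calls give no support of their own. Of 7 GAPs tested, 1 rose and 1 fell. Sgsm1 averaged 4.82 ± 1.90 RPKM with tumours and 0.435 ± 0.185 RPKM before (1.98 ± 0.23, limma, adjusted p = 0.0015), and Tbc1d17 fell (-0.68 ± 0.16, adjusted p = 0.026). Of 6 effectors tested, 2 fell, the Rab27 effector Exph5 (-0.77 ± 0.15) and the Rab11 effector Rab11fip3 (-0.62 ± 0.14).

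In the hepatoma 6 of 7 prenylation and recycling factors, 11 of 12 exchange factors, 19 of 20 GAPs and 15 of 19 effectors rose. The medians of these lists were 1.07, 1.39, 1.43 and 1.12 on the log2 scale, each below the 1.58 of all tested genes, of which 85.5% were higher. Among the up to 4 called genes with the largest change in each list, Chml, Rin1, Sgsm1, Myo5a and Bicd1 had no control library at 1 RPKM. Rilp had no hepatoma library at that level. Each thus entered the test through 1 group alone, so its p-value only describes the separation and gives no support of its own. Rin1, an exchange factor for Rab5, averaged 14.6 ± 1.97 RPKM in hepatoma and 0.0392 ± 0.0280 RPKM in control (3.90 ± 0.16, limma, adjusted p = 3.3e-07). Sgsm1 averaged 6.16 ± 1.30 RPKM in hepatoma and 0.0120 ± 0.0190 RPKM in control (2.80 ± 0.17, limma, adjusted p = 1.3e-06). Gdi2 averaged 145 ± 15.2 and 58.9 ± 5.49 RPKM in hepatoma and control. Bicd1, an adaptor that joins Rab6 to dynein, averaged 3.69 ± 0.424 RPKM in hepatoma and had no reads in all 3 control libraries. Rilp, an effector of Rab7 on lysosomes, fell to 0.645 ± 0.232 RPKM in hepatoma, against 6.94 ± 4.33 RPKM in control (-2.07 ± 0.46, limma, adjusted p = 0.0094).

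In regenerating liver 2 of 5 GAPs tested rose, Tbc1d2b (0.67 ± 0.12, limma, adjusted p = 0.031) and Tbc1d7 (0.60 ± 0.11, limma, adjusted p = 0.029). The GAP median was 0.31, against 0.53 for all genes tested, of which 21.2% were higher. No tested prenylation factor, exchange factor or effector passed. Between hepatoma and regenerating liver all 6 tested GAPs were higher in hepatoma, as were both exchange factors tested. Their medians were 1.07 and 0.84, below the 1.45 of all genes tested, of which 81.5% were higher. Hps1, part of the exchange factor for Rab32 and Rab38, differed by 1.24 and Mon1b, of the Rab7 exchange factor, by 0.45 on the log2 scale.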

How the data were processed

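The authors deposited 3 tables, with values read as RPKM from their steps (0.001 stands for no reads). Per the file headers they also give a log2 ratio of group means and a p-value named as Holm-corrected. The aligner, genome build, annotation and counting are not given in the sources used here. No listed gene has a deposited p-value of 0.05 or more, so the genes were preselected for a difference, which can make adjusted p-values too low. In the hepatoma table, 1 row named no gene and was dropped.

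For the tests, RPKM + 1 was put on the log2 scale and each whole table was fitted with limma 3.58.1 in R 4.3.3 (two-sided, with the trend and robust options). Adjustment counted 21951 mouse (GENCODE M21) and 23154 rat (RefSeq GRCr8) protein-coding genes. The direct rat comparison fitted 3 groups at once. The procedure was run on simulated data in which few genes changed, evenly up and down. The deposited tables are mostly one-sided, so that run does not show how the procedure behaves on them. All listed members matched the annotations. Python 3.11.15 did the remaining work.

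The members and lists were chosen with earlier results of these data known. Values per library are given for the 6 largest rises and 6 largest falls called per comparison, members listed in all tables or opposed between tumour models, and members called in the direct comparison. Rab17, Rab33a and Rab36 were added after their values were seen, and other members where a role group turned on them. Of regulator lists, up to 4 called genes were eligible per comparison, and some items are not reported here. Alternatives were the pseudocount, filter, scaling, adjustment, plain limma, joint fit, replicate block and each library left out.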

Additional observations from a re-analysis of the deposited data

Results flagged for a closer look

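Of 47 groups of 4 libraries searched, 38 in the hepatoma and 9 in regenerating liver, 5 held a value that stood apart from the other 3 by Dixon's test at 95%, which chance alone does in about 1 in 20 groups. Hepatoma library 2 was highest at 64.2 RPKM of Rab6a, 100.4 RPKM of Rab10 and 85.6 RPKM of Rab11a. Regenerating library 1 was highest at 4.36 RPKM of Rab3d, and regenerating library 4 at 65.8 RPKM of Rab1b.

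The hepatoma and regenerating liver differed from each other in the direct limma test by 3.32 for Rab31, 2.37 for Rab34, 2.23 for Rab3d, 1.47 for Rab4b, 1.28 for Rab13 and 0.61 for Rab4a, as log2 fold change of hepatoma over regenerating liver.

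For 7 members the tumour models gave log2 fold changes of opposite sign, with no overlap of groups in either model, although only Rab3a and Rab38 passed the test in both. The hepatoma value minus the DEN value, both as log2 fold changes, was -3.23 for Rab38, 2.40 for Rab4b, 2.00 for Rab3a, 1.95 for Rab5c, 1.50 for Rab1b, 1.23 for Rab43 and 1.22 for Rab14. These differences were not tested. With library medians equal the hepatoma values of Rab4b, Rab5c, Rab1b, Rab43 and Rab14 turned negative.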

How the results depend on the processing

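Called members were 3 higher and 3 lower in DEN, 30 and 1 in hepatoma, 2 and 0 in regenerating liver, and 6 and 0 in the direct comparison. With library medians equal they were 5 and 0, 7 and 8, 0 and 0, and 3 and 2. The shares of all tested genes higher and lower were then 24.8% and 17.2% in DEN and 31.3% and 26.7% in hepatoma. They were 1.53% and 3.17% in regenerating liver, and 29% and 28.4% in the direct comparison. That scaling turned the sign for Rab32 (0.079) and Rab5c (0.043) in DEN, for 20 of 34 in hepatoma (Rab10 -0.30, Rab11a -0.34, Rab12 -0.30, Rab14 -1.08, Rab18 -1.64, Rab1a -0.40, Rab1b -0.996, Rab22a -0.17, Rab24 -0.15, Rab28 -0.47, Rab2a -1.06, Rab2b -0.35, Rab40c -0.0068, Rab43 -1.27, Rab4a -0.74, Rab4b -0.031, Rab5a -0.38, Rab5b -0.60, Rab5c -0.32 and Rab6a -0.25), for Rab1b (-0.23), Rab34 (-0.10), Rab4a (-0.26) and Rab4b (-0.40) in regenerating liver, and for Rab13 (-0.33), Rab1b (-1.29), Rab4a (-0.95) and Rab4b (-0.11) in the direct comparison. It also removes any shift the listed genes share. Members lower in DEN were 1 with a pseudocount of 0.1, 1 with a filter of 5 RPKM and 1 with plain limma. Adjustment over the tested genes alone gave 5 higher and 8 lower in DEN and 7 higher in regenerating liver, and the filter of 5 RPKM left 0 higher there. Fitting all rat groups at once tested only 7 members in hepatoma, 7 higher and 0 lower. Without hepatoma libraries 3 and 4, chosen after seeing the data, 2 were lower. The added call was that of Rab17, which was highest in those of the hepatoma libraries, so it gives no support. Leaving out each library gave 2 to 3 higher and 1 to 2 lower in DEN, 30 to 30 and 1 to 1 in hepatoma, 0 to 4 higher in regenerating liver (0 without control library 1, 4 without control library 3), and 5 to 6 in the direct comparison. Replicate numbers did not pair the libraries (correlations of same-numbered deviations from -0.317 to 0.151). With the replicate block, calls were 2 higher and 1 lower in DEN, 30 and 1 in hepatoma, 0 and 0 in regenerating liver, and 6 and 0 in the direct comparison.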

Other observations

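The Arf, Arl and Sar genes, small GTPases of coat formation and membrane traffic that are relatives of the Rab genes, were read beside all tested genes. In DEN livers with tumours, 1 of 6 tested rose and 4 fell, with a median log2 fold change of -0.68 against -0.56 for all genes. Sar1b, which starts COPII vesicles at the ER, averaged 76.5 RPKM with tumours and 255 RPKM before (log2 fold change -1.66 ± 0.31), and Arf4, of the Golgi, 111 and 63.9 RPKM (0.76 ± 0.19). In the hepatoma 19 of 21 tested rose and 1 fell, with a median of 1.50 against 1.58. Arf6, of endocytic recycling at the plasma membrane, averaged 157 ± 24.3 RPKM in hepatoma and 21.7 ± 1.07 RPKM in control (2.79 ± 0.19). In regenerating liver 1 of 4 tested rose and 1 fell. The shares of all tested genes called are those given above for the Rab genes.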
